A study of Mus musculus with 4 samples.

Results

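Mesenchymal cells that express the POU-domain transcription factor gene Pou3f4 were examined in the embryonic mouse nose. The 485 cells were selected on their RNA counts from 13739 cells retained across 4 libraries. Cells were retained where they showed 500 or more genes and no more than 10% mitochondrial UMIs, where a UMI is a molecular tag that marks 1 captured RNA molecule. Members had at least 3 UMIs of the fibrillar collagen genes Col1a1, Col1a2 and Col3a1 together, at least 1 UMI of Pou3f4, and at least 1 UMI of any of 5 further genes, Pdlim3, Col19a1, Sox18, Tafa2 and Col23a1. They had no UMI of Epcam, Cdh5, Sp7 or Slc6a13, which mark epithelium, endothelium, osteoblasts and meninges. Control 1 gave 130 of them, control 2 gave 50, mutant 1 gave 187 and mutant 2 gave 118. The 13 genes of the selection therefore define the cells and are given below as a description only. The level of every other gene in these cells, set against cells outside the selection, also has no test, because each cell was chosen by its own RNA.

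Whole noses at embryonic day 14.5 had been dissociated with papain and collagenase, frozen, and loaded on 10x Genomics droplets with 3-prime chemistry. The 2 libraries titled as mutants came from Sox10Cre/Yap/Taz cKO noses. Their genotype label reads Tg(Sox10-cre)1Wdr with floxed Yap and floxed Taz on C57Bl/6J, and the series design gives 1 floxed and 1 wild-type Yap allele with both Taz alleles floxed. The 2 libraries titled WT carry the label C57Bl/6J, whereas the series design describes animals with both Yap and both Taz alleles floxed and names no Cre. This disagreement could not be settled here, so it is not known whether the controls carried the floxed alleles that the mutants carried. The Cre is driven by Sox10, which is active in the neural crest and later in its glia, so recombination in any given mesenchymal cell is not known from these data. The labels give 2 noses of each genotype and do not say which nose, or which of 2 named sequencing providers, gave which library. The p-values below therefore measure the spread between these libraries, which may be technical in part.

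Pou3f4 lies on the X chromosome and encodes a POU-domain factor that binds DNA through a POU-specific domain and a homeodomain. It is best known from the mesenchyme around the inner ear, where its loss causes X-linked deafness, and from the developing forebrain. Facial mesenchyme comes mostly from the neural crest, and forms the dermis, cartilage, bone and stroma of the nose. Its regions are told apart by transcription factors of the forkhead, T-box, Pax, Alx and Msx families. Yap1 and Wwtr1, the gene of Taz, encode coactivators that the Hippo kinases hold in check and that act on DNA through TEAD factors.

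The members had a median of 7395 and 8085 UMIs in the controls, compared with 10041 and 6175 UMIs in the mutants. Collagen-positive cells that met the same exclusions but held no Pou3f4 UMI numbered 9433, and are called other collagen-positive cells here. Their medians were 6463 and 6591 UMIs in the controls, compared with 8026 and 4950 UMIs in the mutants. In every library the members were the deeper population, and a deeper cell is more likely to show 1 UMI of Pou3f4. Between libraries 22 retained barcodes were shared, none of them by members. Among members, 4, 0, 3 and 5 cells of control 1, control 2, mutant 1 and mutant 2 were among the cells with the highest doublet scores. Levels are given in CPM, the usual depth-scaled unit, from the summed UMIs of a gene over all UMIs of the cells named. Xist was at 1042 to 1610.5 CPM in the members of the 4 libraries, and the Y-linked genes Ddx3y, Uty, Kdm5d and Eif2s3y were at 0 in them. Control 2 stood apart in Xist, which was detected in 69.4% of its members after each cell was thinned to 3000 UMIs, against 96.9% to 97.9% in the other libraries.

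Pou3f4 (ENSMUSG00000056854, chromosome X, 110814280 to 110817207, plus strand, GRCm38) was at 236 and 195 CPM in the members of the controls and at 195 and 278 CPM in those of the mutants. The signal was sparse, as 268 of the 485 members carried a single Pou3f4 UMI and 217 carried 2 or more. Outside mesenchyme the gene was nearly absent. It was at 0 in the 29 to 60 endothelial cells, 34 to 68 macrophages and 7 to 16 neurons of each library, and at 0 to 0.624 CPM in 133 to 395 epithelial cells. Sp7-positive osteoblasts had 0 to 4.95 CPM. Slc6a13-positive meninges-like cells had at most 1 Pou3f4 UMI in a library, or 0 to 9.5 CPM.

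The 5 further genes contributed unequally. Col23a1, which encodes a transmembrane collagen, was detected in 410 of the 485 members, and Tafa2, which encodes a secreted protein of the nervous system, in 230. Sox18, a SoxF factor of vessels and of hair follicle dermis, was detected in 90 members. Col19a1 was detected in 69 members and Pdlim3, which encodes a PDZ and LIM domain protein of the actin cytoskeleton, in 36. Pdlim3 was at 22.4 and 14.6 CPM in the controls, compared with 23.2 and 45.0 CPM in the mutants, against 12.4 to 13.9 CPM in other collagen-positive cells. In control 2 the populations were thus close in Pdlim3. Of the members, 237 had 1 of the 5 genes, 171 had 2, 56 had 3, 17 had 4 and 4 had all 5.

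Foxd1 was the one proposed marker that the selection did not use. It encodes a forkhead factor known from the stroma of the kidney and from head mesenchyme. Foxd1 (chromosome 13, 98354242 to 98359305, plus strand) was at 218 and 292 CPM in the control members and at 192 and 187 CPM in the mutant members. In other collagen-positive cells it was at 52.4 and 52.6 CPM in the controls, compared with 55.8 and 51.6 CPM in the mutants. The summed level was thus higher in the members in every library. At 3000 UMIs per cell it was found in 36.7% to 49.0% of members and in 9.19% to 12.6% of other collagen-positive cells. Macrophages held no Foxd1 UMI. Slc6a13-positive meninges-like cells, which the selection left out, also expressed it, at 93.5 and 139.8 CPM in 57 and 42 control cells, compared with 28.5 and 90.8 CPM in 11 and 14 mutant cells. At 3000 UMIs it was found in 7.14% to 28.6% of them. Over collagen-positive cells at 3000 UMIs, genes were ranked by the lowest of the 4 libraries' ratios of detection in Pou3f4-positive to Pou3f4-negative cells. The 13 genes of the selection were left out of this ranking. Among the genes detected in at least 5% of Pou3f4-positive cells in every library, Foxd1 then led. That limit left out rarer genes such as Gm44593, found at 3000 UMIs in 2.04% to 13.9% of members and 0.275% to 0.536% of other collagen-positive cells. The ratio was 3.43 for Foxd1, and the next genes were Kif6 at 3.27, Tbx18 at 2.55, Csrnp3 at 2.52, Kif24 at 2.33, Ccnd1 at 2.27, Dscc1 at 2.16 and Rad51ap1 at 2.10. The comparison rested on 90, 39, 87 and 97 Pou3f4-positive cells in control 1, control 2, mutant 1 and mutant 2. Kif24, Dscc1 and Rad51ap1 act in cell division or in DNA replication and repair.

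A long noncoding RNA beside Pou3f4 appeared in the same cells. Gm44593 (ENSMUSG00000109088, chromosome X, 110634586 to 110812324, minus strand) is annotated as a lincRNA on the opposite strand, with 1955 bases between its start and that of Pou3f4, so the genes point away from each other and do not overlap. It was at 81.3 and 21.9 CPM in the control members and at 70.2 and 61.5 CPM in the mutant members, against 0.987 to 2.39 CPM in other collagen-positive cells. It was detected in 105 of the 485 members and in 52 of the 9433 other cells. Read the other way, 117 of the 178 retained cells with a Gm44593 UMI also held a Pou3f4 UMI. By library these were 64.3% and 46.2% of such cells in the controls, compared with 70.0% and 66.7% in the mutants. Among retained cells without Gm44593, 2.52% to 5.95% held Pou3f4. Control 2 was the lowest library for Gm44593, with 9 UMIs in 5 members.

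Several transcription factors of skin and face mesenchyme were high in the members, while others were lower. Trps1, a GATA-type zinc finger repressor whose loss in people alters hair, nose and fingers, was at 2499 and 2631 CPM in the control members and 2855 and 2525 CPM in the mutant members. Other collagen-positive cells had 614 and 786 CPM in the controls, compared with 1299 and 992 CPM in the mutants. The members were higher in every library, and their 4 values lay closer together than those of the other cells. Mef2c, a MADS-box factor with roles in muscle and neural crest, was at 969 to 1298 CPM in the members and 263 to 516 CPM in the other cells. Twist2, a helix-loop-helix factor of the dermis, was at 437 to 616 CPM against 182 to 249 CPM. Lef1, which carries canonical Wnt signals to DNA, was at 185 to 292 CPM against 59.8 to 129 CPM. Tbx18, a T-box factor of mesenchymal condensations, was at 76.6 to 134 CPM against 25.1 to 31.1 CPM. Each of these 5 factors was therefore higher in the members in all 4 libraries. Hlf, Tshz3 and Meis1 completed the transcription factors among the 25 genes with the highest ratios, with ratios of at least 2.10, 1.97 and 1.81 in every library after 10 CPM were added to both levels.

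**Figure D1:**
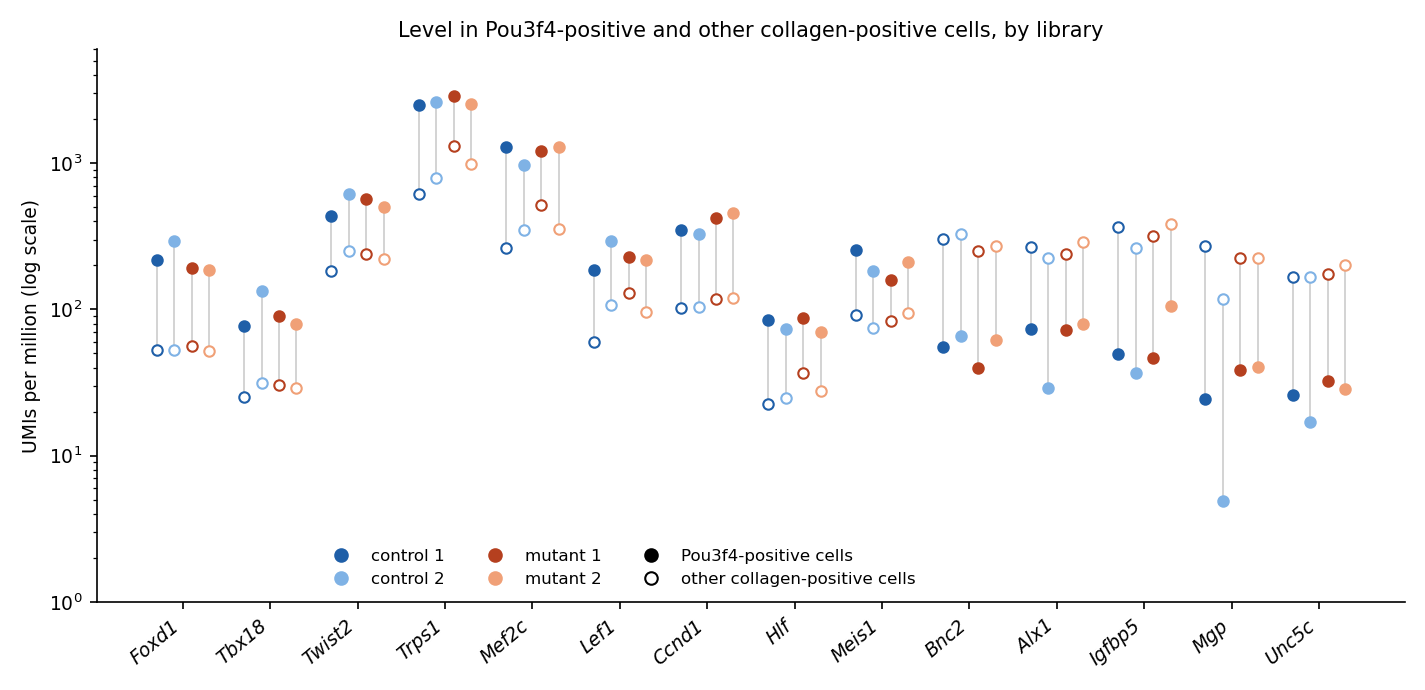
Level of 14 genes in Pou3f4-positive cells (filled) and other collagen-positive cells (open), 1 colour per library, in CPM on a log axis; grey lines join the populations of a library. The 9 genes on the left, Foxd1 to Meis1, are higher in the Pou3f4-positive cells in all 4 libraries, and the 5 on the right, Bnc2 to Unc5c, are lower in all 4. None of these differences was tested.

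Genes of the growth and signalling machinery were also among these 25. Ccnd1, which encodes the cyclin that drives entry into the cell cycle, was at 350.3 and 326 CPM in the control members and 422 and 458 CPM in the mutant members, against 102 to 119 CPM in the other cells. The phosphodiesterase genes Pde4d and Pde3a, which encode enzymes that break down cyclic AMP, were at 616 to 742 CPM and 207 to 312 CPM, against 245 to 277 CPM and 99.5 to 129 CPM. Acvr1, a type I receptor for bone morphogenetic proteins, was at 146 to 179 CPM against 72.7 to 80.6 CPM. Pappa, which encodes a protease that cleaves IGF-binding proteins, was at 94.9 to 123 CPM against 39.8 to 55.4 CPM. The division genes Nusap1, Ect2, Clspn, Gmnn, Cenpv and Hist1h1b were in the same list.

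A list of 24 genes of hair follicle dermal condensates and papillae was added after these levels had been seen, so it is no independent evidence. Its summed level was 3876 and 4289 CPM in the control members and 4391 and 3983 CPM in the mutant members. In other collagen-positive cells it was 1474 and 1575 CPM in the controls, compared with 2411 and 1968 CPM in the mutants. Trps1 alone made up 61.4% to 65.0% of the sum in the members and 41.7% to 53.9% of it in the other cells. Several genes of the list were at low levels. Sox2, which marks dermal condensates of several hair types, was at 6.42 to 13.1 CPM in the members and was detected in 23 of them. Sostdc1, which encodes a secreted BMP and Wnt antagonist, was at 307 to 406 CPM against 132 to 295 CPM. The hedgehog receptor and target Ptch1 was at 135 and 231 CPM in the control members and 198 and 141 CPM in the mutant members, against 117 to 162 CPM. Its control and mutant values interleaved, and the members' lowest value lay within the range of the other cells.

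Several regional factors were near 0 or low in the members. Foxc1, a forkhead factor of meninges and periocular mesenchyme, was at 0 to 4.67 CPM, against 20.8 to 32.7 CPM in other collagen-positive cells. Foxf1 and Foxf2, forkhead targets of hedgehog signalling in the palate, were at 0 to 1.98 CPM and 0 to 0.988 CPM. Tbx22 was at 0 in all 4 libraries. Six2 was at 0.988 to 5.92 CPM and Barx1 at 5.6 to 17.7 CPM, against 32.7 to 42.7 CPM and 45.1 to 77.9 CPM. Pax9, a palate and tooth factor, was at 0.934 and 2.43 CPM in the control members and 5.44 and 20.1 CPM in the mutant members. Alx1, a homeobox gene of the midface, was lower but present, at 29.2 to 79.3 CPM against 226 to 289.9 CPM. Pax3, in contrast, was at 251 to 299.8 CPM in the members against 114 to 203 CPM.

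Other genes had lower levels in the members. Among the 15 genes with the lowest ratios, Mgp, which encodes an inhibitor of mineralization, was at 4.87 to 40.2 CPM against 117 to 273 CPM, and the netrin receptor gene Unc5c was at 17.0 to 32.6 CPM against 165 to 202 CPM. The cartilage genes Col2a1 and Mia were at 7.47 to 37.9 CPM and 0 to 9.47 CPM, against 75.3 to 207 CPM and 55.5 to 88.3 CPM. Cartilage, which is part of the other cells, can raise their level of these genes. Bnc2, a zinc finger gene, was at 39.5 to 65.7 CPM against 250.2 to 328 CPM. The summed level of 17 genes of the IGF axis and imprinted growth genes was 2562 to 3301 CPM in the members and 6791 to 7587 CPM in other collagen-positive cells. Within it Igf2 was at 38.0 to 107 CPM against 236 to 283 CPM and H19 at 68.7 to 163 CPM against 360.2 to 415 CPM. The 15 immediate early genes summed to 1019 to 1575 CPM against 2458 to 3700 CPM, and 21 basement membrane genes to 439 to 560 CPM against 861 to 1015 CPM.

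The cells matched a mesenchymal label by markers other than the 3 collagens. Pdgfra was at 87.8 to 146 CPM, Prrx1 at 197 to 343 CPM and Twist1 at 350.3 to 486 CPM in the members. Each was lower than in other collagen-positive cells of the same library, which had 133 to 160.3 CPM, 503 to 522 CPM and 465 to 555 CPM. Marker sums of several other cell types were low, but that of bone was not. The 9 bone genes summed to 1388 and 1078 CPM in the control members and 1327 and 1460 CPM in the mutant members. Other collagen-positive cells had 726 and 753 CPM in the controls, compared with 994 and 917 CPM in the mutants. Sums for cartilage (146 to 376 CPM), meninges (190 to 230 CPM) and mural cells (73.1 to 144 CPM) were lower in the members than in the other cells. The 9 epithelial markers summed to 0 to 17.7 CPM, the 8 macrophage markers to 6.92 to 9.74 CPM, the 8 glial markers to 2.43 to 26.7 CPM and the 6 red cell genes to 1.87 to 4.94 CPM. At 0 in all 4 libraries were Epcam, C1qa, C1qc, Tyrobp, Gfra3, Hba-a1, Hba-a2 and Hba-x. The 8 endothelial markers summed to 13.0 to 24.3 CPM, with Cdh5, Emcn and Cldn5 at 0, and the 7 skeletal muscle markers to 4.87 to 13.0 CPM, with Myod1, Myog and Myf5 at 0. Epcam and Cdh5 were fixed at 0 by the selection. In the glial list 1 mutant 1 cell held 23 of the 25 UMIs of Fabp7. The 8 neuronal markers reached 295 to 377 CPM in the members and 250.1 to 275 CPM in other collagen-positive cells, mostly through Gap43 and Stmn2, while Tubb3 was at 6.42 to 12.2 CPM and Neurod1 at 0.

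Trps1 was highest in the cells furthest inside the selection. In the 126 members with at least 2 Pou3f4 UMIs and at least 2 of the 5 further genes, Trps1 was at 3135 and 3657 CPM in the controls, compared with 2996 and 2610.5 CPM in the mutants. In the 146 members just inside both limits, with 1 Pou3f4 UMI and 1 further gene, it was at 2055 and 2119 CPM in the controls, compared with 2603 and 2324 CPM in the mutants. In 95 cells just outside, with Pou3f4 but none of the 5 genes, it was at 1049.6 and 1227 CPM in the controls, compared with 829 and 1232 CPM in the mutants. Foxd1 was less regular, at 202 to 278 CPM in the strongest members, 142 to 190.2 CPM just inside, and 32.3 to 214 CPM in the cells without a further gene. In 1094 cells with at least 2 further genes and no Pou3f4 UMI, Trps1 was at 884 CPM in control 1 and 1696 to 2019 CPM in the other 3 libraries. In every library these cells lay between the members and all other collagen-positive cells, among which they are counted.

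**Figure D2:**
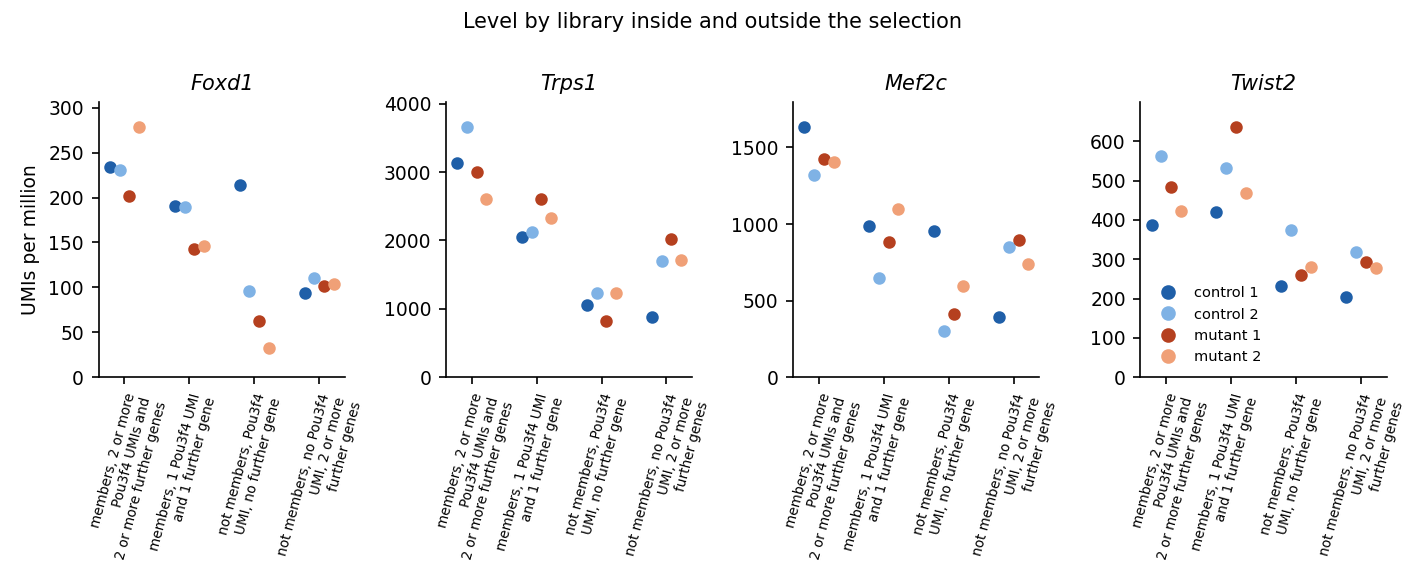
Level of Foxd1, Trps1, Mef2c and Twist2 in CPM, 1 point per library, in 126 members with 2 or more Pou3f4 UMIs and further genes, 146 members with 1 of each, 95 cells outside with Pou3f4 alone, and 1094 cells outside with 2 or more further genes alone. Trps1 and Mef2c are highest in the first set in every library.

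The share of these cells was compared between the groups to ask whether their number differed. Members made up 3.19% of retained cells in control 1 (exact 95% binomial interval 2.67 to 3.78) and 2.02% in control 2 (1.50 to 2.66). They made up 6.24% in mutant 1 (5.40 to 7.17) and 2.81% in mutant 2 (2.33 to 3.36). The means were 2.61% ± 0.827 (SD, n = 2) and 4.53% ± 2.43 (SD, n = 2), and mutant 2 lay between the controls. The difference of 1.92 percentage points gave a two-sided exact permutation p of 0.667, and this design cannot go below 0.333. Mutant 1 decided the size of the difference, which was 0.207 points without it. Of the 10013 collagen-positive cells that met the exclusions, members were 4.50% and 2.64% in the controls, compared with 8.56% and 3.88% in the mutants, a difference of 2.65 points with an exact permutation p of 0.667. The intervals cover counting error only.

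Mutant 1 had the largest share and the deepest cells, with a median of 8549 UMIs. Depth did not order the other libraries, since mutant 2, the shallowest at 5282 UMIs, had a larger share than control 2 at 6878.5 UMIs. When the selection was applied to cells thinned to 3000 UMIs, the shares were 1.50% and 0.782% in the controls, compared with 2.55% and 2.05% in the mutants. Both mutants then lay above both controls, by 1.16 points, at the smallest exact permutation p that the design allows, 0.333. At equal depth 57 and 18 control cells and 71 and 75 mutant cells met the rule.

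Division markers were more frequent in the members than in other collagen-positive cells. After thinning, 25.8% and 34.7% of members in the controls, compared with 32.6% and 30.8% in the mutants, held a UMI of Mki67 or Top2a, which mark dividing cells. In other collagen-positive cells these shares were 15.9% and 17.8% in the controls, compared with 13.4% and 15.5% in the mutants. Without thinning they were 36.9%, 46.0%, 42.2% and 34.7% of members. A background share in cells that do not divide was not measured. The groups of members overlapped, with a difference of 1.46 points and an exact permutation p of 1. This depended on the selection and on the measure. With at least 2 Pou3f4 UMIs per cell the shares were 31.0% and 33.3% in the controls, compared with 40.6% and 40.4% in the mutants, a difference of 8.34 points at the smallest exact permutation p of 0.333. With Pou3f4 as the sole marker both mutants also lay above both controls, by 4.40 points, at the same exact permutation p. With at least 2 UMIs of S phase and G2/M genes as the measure, both mutants lay below both controls. The shares were then 82.8% and 85.7% in the controls, compared with 79.7% and 80.3% in the mutants. This difference of -4.25 points also had an exact permutation p of 0.333. A sum of 17 S phase genes was 1171 to 1461 CPM in the members against 780.2 to 839.6 CPM, and a sum of 17 G2/M genes 3365 to 4184 CPM against 1834 to 2197 CPM. Where the selection itself was made on thinned cells, the shares with Mki67 or Top2a were 17.5% and 22.2% in the controls, compared with 31.0% and 29.3% in the mutants, a difference of 10.3 points that again had the smallest exact permutation p. The control values then lay near those of the other cells, at 15.9% and 17.9%, and the part of depth in the higher share was not tested.

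**Figure D3:**
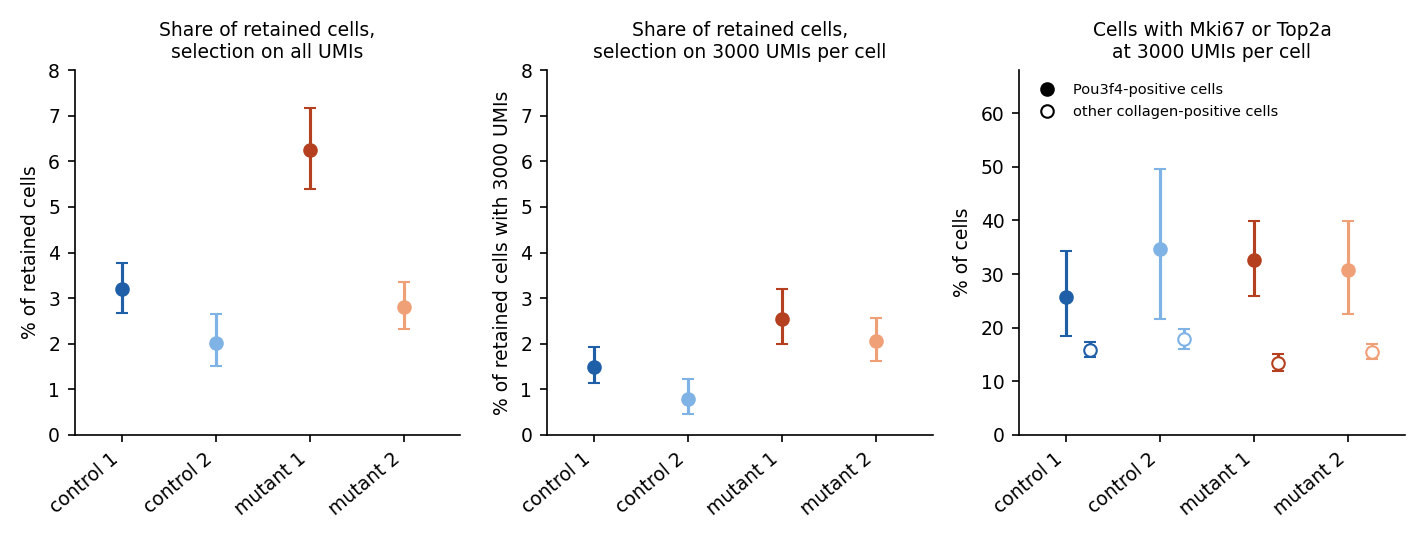
Left and middle, share of retained cells that met the selection, made on all UMIs or on cells thinned to 3000 UMIs; right, share of cells with Mki67 or Top2a in Pou3f4-positive (filled) and other collagen-positive cells (open). Points are libraries and bars exact 95% binomial intervals. Mutant 2 lies between the controls on the left and above both in the middle.

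The targeted genes were examined before other genes. Yap1 was at 71.9 and 70.6 CPM in the control members and 64.2 and 73.4 CPM in the mutant members. On the log2 scale this is -0.13 ± 0.20 (SE, n = 2 per group), and the edgeR adjusted p was 0.989. Wwtr1 levels were 135 and 129 CPM in the controls, compared with 157 and 168 CPM in the mutants, or 0.23 ± 0.17 higher on the log2 scale, with 0.966 as the edgeR adjusted p. Neither gene was detectably lower in the mutant members. Because 3-prime reads can also come from transcripts without the floxed exons, these levels are no measure of recombination. Of the TEAD genes, Tead1 was at 326 to 409 CPM, Tead2 at 113 to 140.1 CPM and Tead3 at 23.4 to 31.6 CPM in the members, and Tead4 had 0 to 2.37 CPM. Sox10 had 3 UMIs in 2 mutant 1 cells and none in the other members, so the gene that drives the Cre was at or near 0 in these cells at this stage.

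Of 21 classic YAP and TAZ target genes 17 were tested, and both mutants lay above both controls for 3 and below both for 6. Over all genes tested those shares were 23.1% and 12.7%. At an unadjusted edgeR p under 0.05, 1 target was higher and 1 lower, where 2.19% of all genes tested were higher and 2.18% lower. Their median log2 change was -0.07, and that of all 9047 genes tested was 0.00. Amotl2, which encodes an angiomotin that binds YAP, was at 41.1 and 60.9 CPM in the controls, compared with 23.7 and 29.6 CPM in the mutants. Gadd45b, a stress response gene, was at 39.2 and 24.3 CPM in the controls, compared with 61.3 and 60.3 CPM in the mutants. Ccn1 was at 113 and 178 CPM against 132 and 125 CPM, and overlapped. Ankrd1 was at 0 in all members.

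No gene passed the threshold between mutant and control members. With edgeR's quasi-likelihood test and Benjamini-Hochberg adjustment, 0 of 9047 genes (0%) had an adjusted p under 0.05. At an unadjusted p under 0.05 there were 395 genes (4.37%), 198 higher and 197 lower in the mutants, and DESeq2 gave 0 genes past its adjusted threshold and 100 at an unadjusted p under 0.05. In 2086 genes (23.1%) both mutants lay above both controls, and in 1149 genes (12.7%) both lay below. Leaving out 1 library gave 3 genes without control 1, 1 without control 2, 7 without mutant 1 and 28 without mutant 2. The genes of smallest p in each direction follow as values, since none passed with all 4 libraries.

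Tbx3, a T-box repressor of limb, heart and mammary development, had the smallest p among genes higher in the mutants. Tbx3 (chromosome 5, 119670669 to 119684724, plus strand) was at 28.0 and 24.3 CPM in the controls, compared with 72.6 and 82.8 CPM in the mutants. Its mutant values were well apart from those of the controls, with UMIs in 25 of 130 and 8 of 50 control members and 66 of 187 and 36 of 118 mutant members. The log2 change was 1.46 ± 0.24 (SE), with an edgeR adjusted p of 0.412. Over 15 alternative settings the change stayed between 1.24 and 1.60, and it passed the adjusted threshold in 2 of them. In other collagen-positive cells Tbx3 was at 39.7 and 36.5 CPM in the controls, compared with 59.6 and 48.1 CPM in the mutants, and the difference between these changes had an edgeR adjusted p of 0.161.

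Col13a1, which encodes a transmembrane collagen at cell adhesions, was at 14.9 and 24.3 CPM in the controls, compared with 55.3 and 48.5 CPM in the mutants. Rabgef1, an activator of Rab5 in endosome traffic, was at 14.0 and 4.87 CPM in the controls, compared with 42.0 and 46.1 CPM in the mutants. Rabgef1 was likewise higher in the mutants of the other cells, at 20.2 and 18.9 CPM against 43.3 and 37.8 CPM. Gsc, the homeobox gene goosecoid of craniofacial mesenchyme, rested on 2 UMIs in 2 control cells against 39 UMIs in 31 mutant cells. Their ratio per depth was 10.1 (exact 95% counting interval 2.61 to 86.1). Rnf128, which encodes a ubiquitin ligase, rested on 2 UMIs in 2 control cells and 40 UMIs in 35 mutant cells, a ratio of 10.3 (2.68 to 88.2).

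Both Eif3l and Polr2f lie beside Sox10 on chromosome 15. Eif3l (79075179 to 79094405, plus strand), a subunit of a translation initiation factor, was at 104 and 53.6 CPM in the control members and 191 and 204 CPM in the mutant members. Polr2f (79141009 to 79151774, plus strand), a subunit shared by RNA polymerases, was at 178 and 217 CPM in the controls, compared with 347 and 329 CPM in the mutants. Sox10 itself lies at 79154908 to 79165240 on the minus strand. In other collagen-positive cells Eif3l was at 86.3 and 84.9 CPM against 175 and 184 CPM and Polr2f at 192 and 179 CPM against 353 and 332 CPM. The changes were thus as large outside the members, and the difference between the populations had an edgeR adjusted p of 1 for each gene. The mutant label names a Sox10-cre transgene, whose content was not analysed here.

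Of the lists, heat shock genes held the most members that were higher in the mutants at a low p. Of 10 genes tested, 4 had an unadjusted edgeR p under 0.05, all higher in the mutants, where 2.19% of all genes tested were higher at that p. In 7 of the 10 both mutants lay above both controls, where the share over all genes tested was 23.1%. The median log2 change of the 10 genes was 0.10. Hspa1a, an inducible Hsp70 gene, had a single UMI in all control members and 50 UMIs in 26 mutant members, a ratio per depth of 25.8 (exact 95% counting interval 4.43 to 1040). Hspa1b, its near-identical neighbour, was at 2.80 and 7.30 CPM in the controls, compared with 15.8 and 15.4 CPM in the mutants. Reads of these copies can be split between them, so each value is uncertain. Hspb1 was at 8.41 and 7.30 CPM against 34.1 and 18.9 CPM and Hsph1 at 21.5 and 34.1 CPM against 54.4 and 42.6 CPM. Hspa1a was also higher in the mutants of the other cells, at 20.8 and 5.01 CPM against 54.0 and 54.9 CPM. The part of cell handling in these values was not tested.

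Among genes lower in the mutants, Dkk2 had a steady level within each group. It encodes a secreted Wnt antagonist, and was at 82.2 and 70.6 CPM in the control members and 36.1 and 37.9 CPM in the mutant members. The log2 change was -1.14 ± 0.22 (SE), with an edgeR adjusted p of 0.43. Ebf1, a helix-loop-helix factor of facial mesenchyme and B cells, was at 555 and 1013 CPM in the controls, compared with 388 and 354 CPM in the mutants. Its change was -1.10 ± 0.24 with an edgeR adjusted p of 0.601. It was smaller without control 2, at -0.63, with Pou3f4 as the sole marker, at -0.59, and with the selection on thinned cells, at -0.54. St6gal2, a sialyltransferase gene, was at 48.6 and 48.7 CPM in the controls, compared with 20.8 and 22.5 CPM in the mutants. Dlk1, an imprinted gene of a membrane protein that holds back differentiation, was at 229.8 and 253 CPM in the controls, compared with 144 and 164 CPM in the mutants. Its direction depended on the selection. With the selection made on cells thinned to 3000 UMIs, Dlk1 was at 91.0 and 53.1 CPM in the controls, compared with 163 and 189 CPM in the mutants, and single cells held 58 of 121 and 51 of 92 of the mutant UMIs.

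Some low genes rested on few cells. Mfap5, which encodes a microfibril protein, had 31 UMIs in 5 control cells and 1 UMI in 1 mutant cell. Btbd16 had 19 UMIs in 3 control cells and 6 UMIs in 4 mutant cells. Cdh4, the gene of R-cadherin, had 39 and 9 UMIs in 10 and 4 control cells and 12 UMIs in each mutant library, in 7 and 5 cells. AY036118, a noncoding gene, was at 345 and 350.5 CPM in the controls, compared with 232 and 183 CPM in the mutants, and moved alike in the other cells, at 409.9 and 394 CPM against 275 and 234 CPM.

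**Figure D4:**
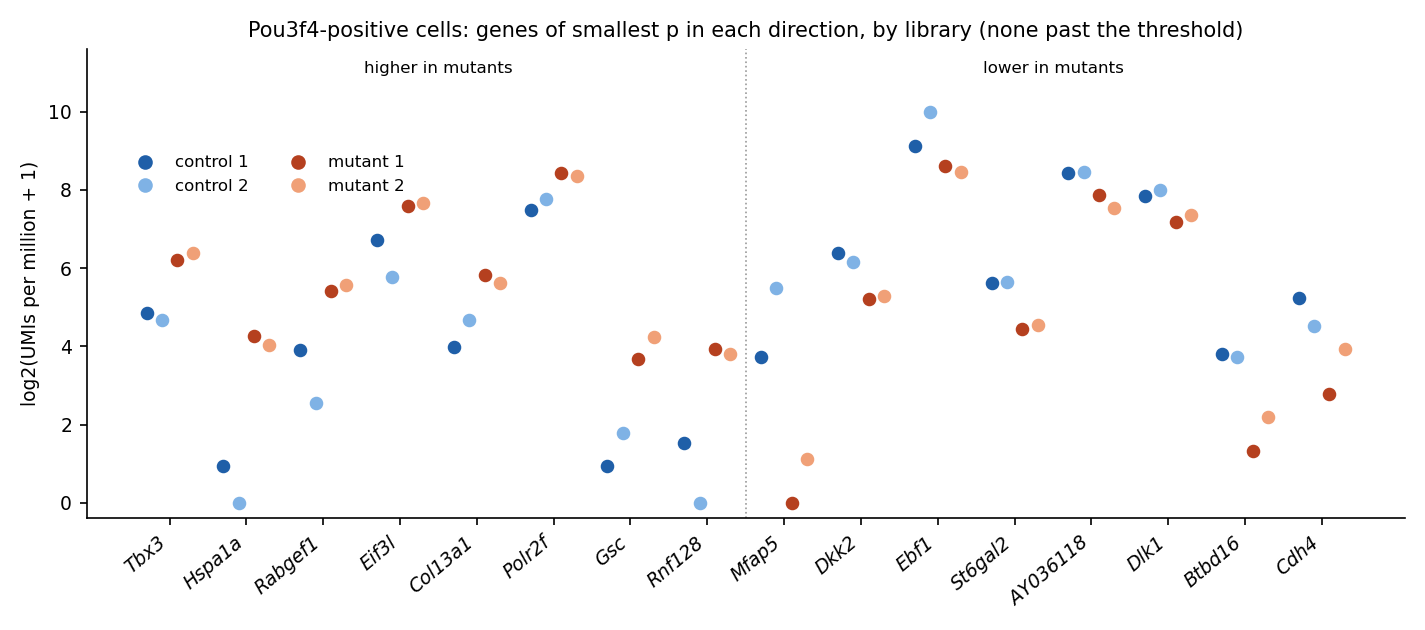
Level in Pou3f4-positive cells of the 8 genes of smallest p in each direction, as log2 of CPM plus 1, 1 point per library. In all 16 genes the mutants lie on 1 side of the controls, and none had an edgeR adjusted p under 0.05.

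Lists of mesenchymal genes were compared between the groups, starting with the dermal condensate and papilla genes, which were added after the levels had been seen. Of the 24 dermal condensate and papilla genes 19 were tested, with 1 higher and 1 lower at an unadjusted edgeR p under 0.05, and a median log2 change of -0.07. At that p, 2.19% of all genes tested were higher and 2.18% lower. In 1 of the 19 both mutants lay above the controls and in 5 below, where the shares over all genes tested were 23.1% and 12.7%. The lower gene was Foxd1, whose log2 difference was -0.45 ± 0.18 with an edgeR adjusted p of 0.966. The higher gene was Rspo3, which encodes an enhancer of Wnt signalling, at 60.7 and 53.6 CPM in the controls, compared with 110.2 and 81.6 CPM in the mutants. Among 18 facial mesenchyme factors 7 were tested, and Twist1 alone had an unadjusted edgeR p under 0.05, at 350.3 and 351 CPM in the controls, compared with 475 and 486 CPM in the mutants. Of 28 factors of the Eya, T-box, Zic, Pax and related families 16 were tested, and Tbx3 was higher and Osr2 lower at that p. Osr2, a palate factor, was at 81.3 and 70.6 CPM in the controls, compared with 48.9 and 52.1 CPM in the mutants.

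In the signalling lists few genes had a low p in either direction. Over all genes tested, 2.19% were higher and 2.18% lower at an unadjusted edgeR p under 0.05. Of 16 IGF axis and imprinted genes tested, 4 were lower at an unadjusted edgeR p under 0.05 and none was higher, with a median log2 change of -0.14, where 2.18% of all genes tested were lower at that p. These were Dlk1, Igf2, Igf2r and Igfbp2, which encode a membrane protein, a growth factor, its clearance receptor and a binding protein. Dlk1 turned to a log2 change of 1.08 with the selection on thinned cells. Igfbp2 was at 219.5 and 180.1 CPM in the controls, compared with 127 and 174 CPM in the mutants. Of 20 BMP and TGF-beta genes tested, Bmp7 was higher, with 27.1 and 31.6 CPM in the controls, compared with 42.5 and 63.9 CPM in the mutants, and Bmp6 lower, at 15.9 and 19.5 CPM against 6.92 and 11.8 CPM. Of 6 Notch genes, the effector Hes1 was lower, at 50.4 and 46.2 CPM against 26.2 and 20.1 CPM. In the hedgehog list the transducer Smo was higher and the coreceptor Cdon lower, of 10 tested. In 10 FGF and 4 PDGF genes none had an unadjusted edgeR p under 0.05.

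Matrix genes went in both directions. Of 19 proteoglycan and glycoprotein genes tested, 3 were higher and 2 lower at an unadjusted edgeR p under 0.05, with a median log2 change of -0.08. Over all genes tested, 2.19% were higher and 2.18% lower at that p. Postn, which encodes a matrix protein of connective tissue, was at 216 and 114 CPM in the controls, compared with 329 and 293 CPM in the mutants, and Eln, the gene of elastin, at 71.0 and 77.9 CPM against 108 and 156 CPM. Ogn was lower, at 112 and 87.6 CPM against 43.5 and 71.0 CPM. Of 20 collagen genes tested Col13a1 alone had such a p, and of 10 basement membrane genes Lama2 alone, with overlapping groups. The 17 S phase and 17 G2/M genes had medians of 0.03 and 0.01.

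The change between mutants and controls was then compared between the members and other collagen-positive cells of the same libraries, by an interaction test that keeps each library as its own baseline. With edgeR's quasi-likelihood test, 27 of 14724 genes (0.183%) had an adjusted p under 0.05. Sox18 was 1 of them, but it is part of the selection, so its value is a description and no test result. The difference was more negative in the members for 19 genes and more positive for 8. The count depended on the libraries, with 89 genes without control 1, 43 without control 2, 15 without mutant 1 and 35 without mutant 2, of which 11, 17, 5 and 18 were among the 27. Of the markers counted in the other cells, Foxl2 or Agtr2 alone separated the groups, and Osr1, Shox2, Runx2, Sox9, Foxd1 and Alx1 overlapped. Cells with a UMI of Foxl2 or Agtr2 were 24.5% and 21.1% of other collagen-positive cells in the controls, compared with 16.8% and 17.8% in the mutants. The part of the makeup of the other cells in the differences was not tested. Both populations were chosen by their own RNA, and the part of that selection in the differences was not tested either.

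In 9 of the 19 more negative genes both mutants lay above both controls in the other cells, and the members overlapped between the groups. The share of all genes with this pattern was not computed. The 9 genes were chosen by the test of the difference, so this count only describes them. Trps1 (chromosome 15, 50654752 to 50890463, minus strand) had the smallest p of these, with the member and other levels given above. Its log2 change was 0.01 ± 0.15 in the members, and the difference between the populations was -0.66 ± 0.09 with an edgeR adjusted p of 6.35e-06. The members were high in every library, while the other cells differed between the groups. Trps1 also rose toward the inside of the selection, as given above, and the part of the selection in its difference was not tested. Pax3, a paired-box factor of neural crest, was at 299.8 and 251 CPM in the control members and 266 and 275 CPM in the mutant members. In the other cells it was at 114 and 123 CPM in the controls, compared with 203 and 159.9 CPM in the mutants, and the difference was -0.69 ± 0.15 with an edgeR adjusted p of 0.0171. Robo2, a receptor for Slit guidance proteins, was at 1495 and 2512 CPM in the control members and 1698 and 1868 CPM in the mutant members. The other cells had 737 and 898 CPM in the controls, compared with 1099.8 and 949 CPM in the mutants. Of 13 alternatives, 1 ended the call for Trps1, 4 for Pax3 and 5 for Robo2.

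The other genes of this kind were Ndst3, Lrp1b, Nrxn3, Tmtc2, Abi3bp and Sox18. Ndst3, an enzyme of heparan sulfate synthesis, was at 152 and 107 CPM in the control members and 139 and 155 CPM in the mutant members. The other cells went from 32.1 and 41.7 CPM in the controls to 94.4 and 61.1 CPM in the mutants. Trps1, Pax3, Robo2, Ndst3 and Tmtc2 were each higher in the members than in the other cells in all 4 libraries. Sox18 was at 26.2 and 90.1 CPM in the control members and 38.5 and 21.3 CPM in the mutant members, against 5.40 and 6.53 CPM and 18.3 and 10.1 CPM in the other cells.

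In another set the members differed between the groups and the other cells overlapped. Ebf1 had the smallest p of these, with other cells at 749 and 876 CPM in the controls, compared with 809 and 796 CPM in the mutants beside the member levels given above. The difference of the changes was -0.99 ± 0.12, with an edgeR adjusted p of 2.58e-07. Of 13 alternatives the selection on thinned cells ended the call, with a difference of -0.49 and an edgeR adjusted p of 0.643, and with Pou3f4 as the sole marker the difference was -0.48. Dkk2 was at 145 and 195 CPM in the control other cells and 166 and 143 CPM in the mutant ones, a difference of -1.07 ± 0.23 with an edgeR adjusted p of 0.0124. Dlk1 was at 719 and 642 CPM in the control other cells and 635 and 689 CPM in the mutant ones, a difference of -0.60 ± 0.14 with an edgeR adjusted p of 0.0374. With the selection on thinned cells the difference was 1.24, in the opposite direction, with an edgeR adjusted p of 0.00242. The call was lost in 7 more of 13 alternatives for Dlk1 and in 6 for Dkk2. Tagln, a smooth muscle gene, and Dnajc6 showed the same order of libraries. Tagln had 24 and 16 UMIs in the control members and 20 and 9 UMIs in the mutant members. A single control 2 cell held 10 of the 16. Over 13 alternatives its difference ranged from -2.16 to -0.13, and the call was lost in 10. Dnajc6 rested on control 2, whose members had 263 CPM against 21.2 to 40.2 CPM in the other 3 libraries. Tenm4, a teneurin gene of axon guidance, was at 199 and 161 CPM in the control members and 142 CPM in each of the mutant libraries, with both mutants above both controls in the other cells.

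Most genes more positive in the members were at low levels there. Gsc in the other cells was at 28.8 and 22.3 CPM in the controls, compared with 28.2 and 28.1 CPM in the mutants, and the difference was 3.26 ± 0.77 with an edgeR adjusted p of 0.0407. For Gsc 9 of 13 alternatives ended the call, with edgeR adjusted p from 0.0119 to 1. Sox5, a SoxD factor of cartilage and glia, was at 3.74 and 2.43 CPM in the control members and 9.39 and 24.8 CPM in the mutant members, against 105 CPM in both control and 76.6 and 92.3 CPM in the mutant other cells. Single cells held 12 of its 19 UMIs in mutant 1 and 14 of 21 in mutant 2. With the highest doublet scores left out the Sox5 difference was 0.44 with an edgeR adjusted p of 1, and 9 of 13 alternatives ended the call. Pid1 was at 85.0 and 46.2 CPM in the control members and 91.4 and 159 CPM in the mutant members. Nckap5 was detected in 5 and 1 control members and in 14 and 11 mutant members.

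**Figure D5:**
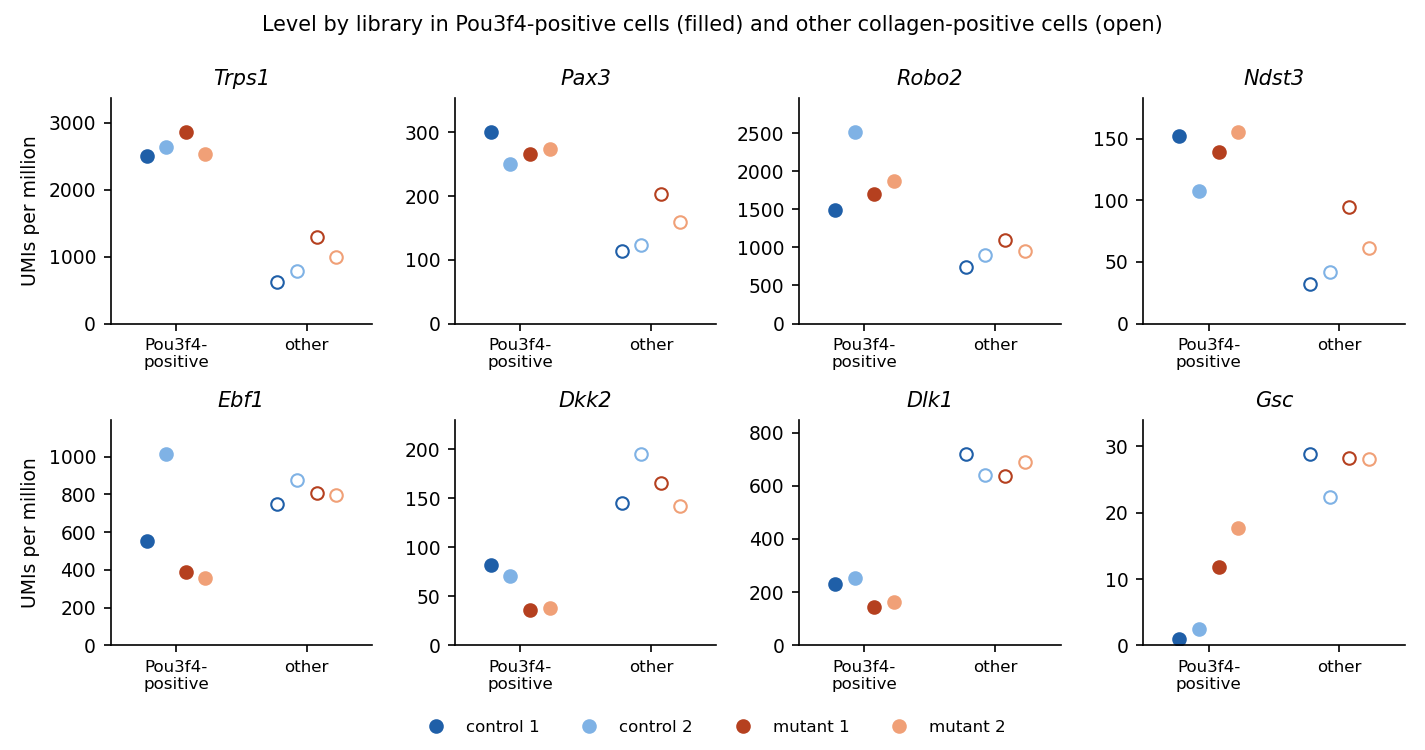
Level of 8 genes in CPM, 1 point per library, in Pou3f4-positive cells (filled) and other collagen-positive cells (open). In the top row the other cells are higher in both mutants while the Pou3f4-positive cells overlap, and in the bottom row the Pou3f4-positive cells of the mutants lie on 1 side of the controls while the other cells overlap. All 8 passed the test of the difference.

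Single cells carried several of the 27 differences. A single control 1 cell held all 50 UMIs of Arhgap40 in that library, and a single control 1 cell all 42 UMIs of Npy. In Zfp804b 52 of 65 UMIs of control 1 were in 1 cell. For Cma1, a mast cell protease, 26 of 27 UMIs lay in 1 mutant 1 cell. Mylpf, a fast muscle myosin gene, had 6 UMIs in 4 mutant 1 cells, 1 UMI in mutant 2 and none in the control members. Of the 66 UMIs of Nkain2 in mutant 2, 60 were in 1 cell, and of the 67 UMIs of Pcp4 in mutant 1, 30 were. The values of these genes describe a few cells.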

How the data were processed

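The deposited files hold raw UMI counts per gene and cell barcode, 1 filtered matrix for each of the 4 libraries. They were made with Cell Ranger 8.0.1 per the file headers, while the submitters' processing notes name Cell Ranger 4, Seurat 4.3.0 and the build mm10. The libraries held 15863 barcodes and 20170229 to 35887490 UMIs, and the members 410818 to 2023869 UMIs, fewest in control 2. Groups were taken from the sample titles.

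The members and all gene lists were chosen with earlier results of these data known, and the list of dermal condensate and papilla genes was added after the levels had been seen. Retained cells were selected as described, and UMIs were summed per library over the members and over the other collagen-positive cells. Sums were tested in R 4.3.3 with edgeR 4.0.16 (TMM scaling, the default filter on low counts, quasi-likelihood test, Benjamini-Hochberg adjustment over all genes tested). The difference of changes was tested on both sums of each library with the library as a term. The tests were tried on simulated data first. Shares were compared by exact two-sided permutation tests over libraries, with exact Clopper-Pearson intervals. For shares at equal depth each cell was thinned to 3000 UMIs, which left 128, 49, 187 and 117 members. Per gene, ratios of few UMIs carry an exact interval for counting error only.

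Genes were named by rule. In each comparison between groups these were the genes past the threshold or, where fewer than 5 passed, the 8 of smallest p in each direction. For levels they were the listed genes and the 25 with the highest ratio of CPM plus 10, by the library of lowest ratio. These 25 came from genes outside the selection that were detected in at least 20% of members. The 15 genes with the lowest ratios and Gm44593 as a neighbour were described after their values had been seen. Positions are from GENCODE M21 (GRCm38), which matched 32235 of 32285 features. Scrublet, run in scanpy 1.11.5, marked at most 3 cells in a library by its automatic threshold and was taken not to have worked, so no doublets were removed and leaving out the highest scores was an alternative. DESeq2 1.42.0, other scaling, filters, selections and each library left out were the other alternatives.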

Additional observations from a re-analysis of the deposited data

Results flagged for a closer look

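The 27 genes of the interaction test are given here with the log2 difference of the mutant change, members minus other collagen-positive cells. Each had an edgeR adjusted p under 0.05, as the test of the difference itself. Sox18 is part of the selection, so its value is a description and no test result. For the other genes the part of the selection in the difference was not tested.

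Among genes with higher levels of the other cells in both mutants and overlapping members, the difference was -0.66 for Trps1, -0.69 for Pax3, -0.46 for Robo2, -1.06 for Ndst3, -1.05 for Lrp1b, -0.96 for Nrxn3, -0.58 for Tmtc2, -2.36 for Abi3bp and -1.95 for Sox18. Among genes with lower levels in the mutant members and overlapping other cells it was -0.99 for Ebf1, -1.07 for Dkk2, -0.60 for Dlk1, -1.51 for Tagln and -1.54 for Dnajc6. Tenm4 had -0.74. In the members Ebf1 reached 40, 96, 49 and 31 UMIs in the single highest cell of control 1, control 2, mutant 1 and mutant 2, so cells were uneven in this gene. Abi3bp had 9 UMIs in 3 control 2 members and 5 UMIs in 3 mutant 1 members, and its difference was -0.83 without mutant 1. For Nrxn3 1 cell held 73 of the 173 UMIs in control 2, and the difference was -0.27 without that library.

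Genes more positive in the members had 3.26 for Gsc, 0.96 for Pid1, and 2.32 for Nckap5. The values of -5.92 for Arhgap40, -5.46 for Mfap5, -2.42 for Npy, -1.93 for Zfp804b, 2.43 for Sox5, 2.07 for Pcp4, 3.26 for Nkain2, 10.54 for Mylpf and 11.74 for Cma1 rested on few cells or on UMIs absent from a group. Such fitted values depend on the handling of low counts and are no measure of size.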

How the results depend on the processing

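Between mutant and control members, 51 genes passed without a filter on low counts and 1 to 28 with 1 library left out, where the lone library of a group is assumed to vary like the other group; the other alternatives run gave 0. With the replicate block the count was 0 (374 at an unadjusted p). Control 1 minus control 2 and mutant 1 minus mutant 2 had a low correlation of 0.0496 over the genes tested. This cannot show whether same-numbered libraries share a batch, since the labels do not say which nose or provider gave which library. For the difference of changes, 50 genes passed with DESeq2 size factors, 52 without the filter, 68 with Pou3f4 as the sole marker, 47 without sex-linked and haemoglobin genes and 15 to 89 with 1 library left out. In the members Dlk1 was at 1.08 with the selection made on thinned cells. The difference reversed there for Arhgap40 (7.65), Mfap5 (6.37), Npy (6.03), Abi3bp (0.61) and Dlk1 (1.24, which passed). With at least 2 Pou3f4 UMIs it reversed for Mfap5 (6.03) and Abi3bp (8.21), and with at least 2 further genes for Npy (0.45). With 1 library left out, Arhgap40 ranged from -9.83 to 2.35, the latter without control 1. Over all alternatives, 232 values of the 27 differences kept direction and call and 108 lost the call. The difference in cycling share was -2.97 points without thinning, -4.25 points by S and G2/M genes, 8.34 with at least 2 Pou3f4 UMIs, 4.40 with Pou3f4 as the sole marker, 10.3 with the selection on thinned cells, and -3.00 (without control 1) to 5.91 (without control 2) points with 1 library left out. The cause was not tested.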
